A study of Arabidopsis thaliana with 30 samples.

Results

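The comparison sets rosettes of the Arabidopsis thaliana mutant uvr8-2 against its wild type Ler in sunlight with at least the shortest ultraviolet removed. It takes 12 of the 30 libraries of the series: 6 uvr8-2 and 6 Ler libraries, 2 per genotype under each of the filters blue0, UV0 and UVA350. uvr8-2 carries a mutation in UVR8, the UV-B photoreceptor, and stands for 1 mutant line. The series also holds cry1cry2, a mutant of both cryptochromes (receptors of blue light), and 2 further filters, UVA and UVA+B, that let shorter ultraviolet through. Those further uvr8-2 and Ler libraries (8, called here the libraries with short UV) share none with the comparison. Plants of all groups were 3 weeks old, had been raised indoors under lamps with their UV-A filtered out, and were taken outdoors for 6 h, from sunrise to solar noon of 1 day. RNA from 2 field blocks went into each library, and each block contributed a pool of 5 rosettes. The labels name the filters without wavelengths, so "short UV" here follows the filter names only. By name, UV0 stands for no UV and blue0 for no blue light. The 3 filters of the comparison thus took away different further parts of sunlight.

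UVR8 is a protein that absorbs UV-B in the plant cell. On absorbing it, UVR8 dimers fall apart, and the monomer binds COP1, a ubiquitin ligase that otherwise removes light-signalling transcription factors such as HY5, so that HY5 builds up and genes for flavonoids, photolyases and chloroplast protection are switched on. RUP1 and RUP2 return UVR8 to the dimer and so close the pathway. Under blue0, UV0 and UVA350 the comparison asks what the mutant's transcript levels look like where the light that UVR8 is best known for has been taken away.

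Estimated counts per library ran from 12109222 in Ler UV0 replicate 1 to 22865826 in uvr8-2 blue0 replicate 1. Chloroplast genes took 0.261% to 1.58% of the counts in uvr8-2 libraries, with the highest share in blue0 replicate 2, and 0.123% to 0.559% in Ler libraries. The largest component of variation among the 12 libraries (41.2%) separated those under blue0 from the rest, and on the next component (12.3%) uvr8-2 UV0 replicate 1 lay farthest from the others. Replicates differed by more than sampling noise in all 6 groups: chi-square over its degrees of freedom was 13.5 to 42.4 in uvr8-2 groups and 10.1 to 11.5 in Ler groups. The rosette leaf genes for light harvesting and Rubisco summed to 42788 to 56756 CPM, a count scaled to library size, in uvr8-2 and 40341 to 48974 CPM in Ler. Of 6 floral organ markers, 4 were under 1 CPM in all 12 libraries, as were 5 of 6 root markers. In whole rosettes, fewer cells of a type and less RNA per cell cannot be told apart.

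Without short UV, 721 of 19574 genes tested differed between uvr8-2 and Ler (3.68%), 248 of them higher in uvr8-2 (1.27%) and 473 lower (2.42%). A gene was called where the Benjamini-Hochberg adjusted p of edgeR's quasi-likelihood test, with the filter as an additive term, was under 0.05. The changes were small: the median fold among the called genes was 1.32, and 51 of them passed 2-fold, 18 higher and 33 lower. The median log2 difference was 0.44 among genes called higher, -0.39 among genes called lower and 0.0036 over all genes tested. For 129 called genes the 6 libraries of uvr8-2 all lay on one side of the 6 libraries of Ler, 68 above and 61 below. Over all genes tested 205 did so (1.05%), 117 above (0.598%) and 88 below (0.45%). The number called depended on the libraries. It lay between 230 and 789 when each library in turn was left out, moved by more than 1.5-fold without 8 of them, and was lowest without Ler UV0 replicate 1. The lower counts stood at 230 and 346 without Ler UV0 replicates 1 and 2, 344 and 299 without Ler UVA350 replicates 1 and 2, 287 without Ler blue0 replicate 2, 322 and 464 without uvr8-2 UVA350 replicates 1 and 2, and 355 without uvr8-2 blue0 replicate 2. In these 12 fits, 199 of the 721 genes were called each time and none changed sign. The fits share most libraries with the one that picked the genes, so the kept signs are no independent check. Leaving out uvr8-2 UV0 replicate 1 and blue0 replicate 2 together, a pair chosen after seeing the data, left 261 called genes, 225 of them among the 721. They are called here the 2 libraries that stand apart. UV0 replicate 1 lay farthest out on the second component, and blue0 replicate 2 had the highest chloroplast share. The label is loose: on the third component Ler UV0 replicate 1 (30.0) lay as far out as uvr8-2 blue0 replicate 2 (-28.9).

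**Figure D1:**
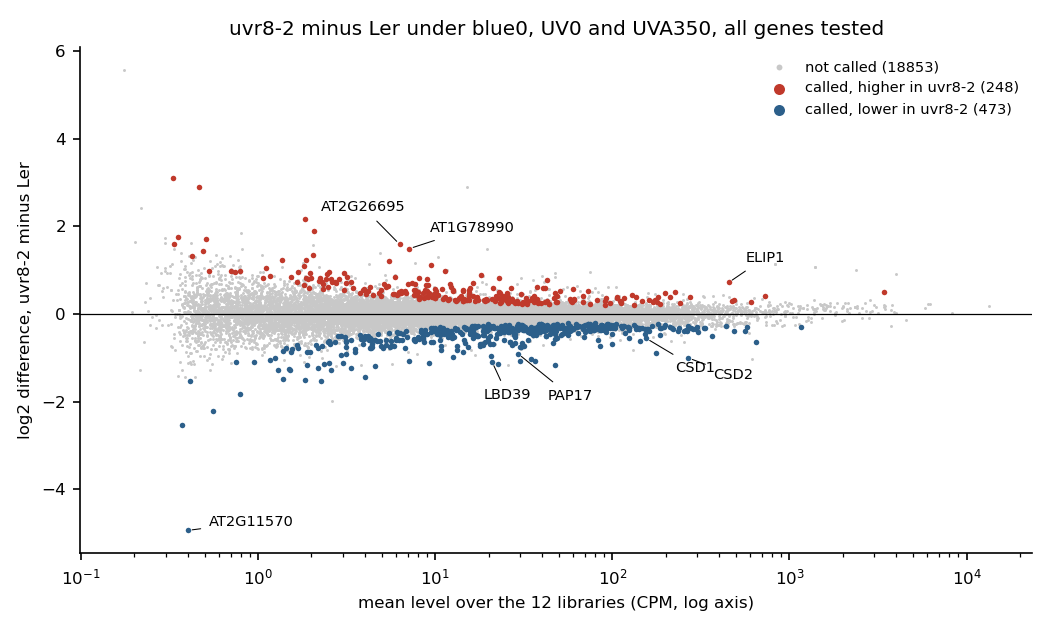
The log2 difference, uvr8-2 minus Ler, of each of the 19574 genes tested (vertical axis) against its mean level over the 12 libraries in CPM (horizontal log axis); red and blue points are the 248 genes called higher and the 473 called lower in uvr8-2. Of the 721 called genes, 51 lie more than 1 log2 unit from 0, CSD2 and LBD39 among them on the lower side.

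The difference between the genotypes could not be shown to vary with the filter. A joint test of the genotype by filter interaction called 0 genes (0%), with 311 genes at an unadjusted p under 0.05; DESeq2 called 3. Within a single filter, uvr8-2 minus Ler called 0 genes under blue0 (0%; 1001 at an unadjusted p under 0.05, and 7 by DESeq2), 3 under UV0 (0.0153%; 68 by DESeq2) and 0 under UVA350 (0%; 1184 at an unadjusted p under 0.05, and 37 by DESeq2). The 3 genes called under UV0 were LBD39 (log2 -1.55 ± 0.18), AT1G76720 (1.12 ± 0.14) and AT4G15660 (-2.65 ± 0.37), all of which were also called over the 3 filters together. The UV0 count moved between 0 and 581 as each library was left out. With 2 libraries per group these tests had less reach for small changes. On counts simulated with 1 spread for all genes, 37.3% of genes changed 1.5-fold were recovered under UVA350, against 97% over the 3 filters together. Of genes changed 2-fold, 94.0% were recovered under UVA350 and 100% over the 3 filters together. These shares need not hold for the data, so 0 calls under UVA350 do not show that 2-fold differences were absent there. AT1G78990 (1.35 ± 0.23, adjusted p = 0.105), AT3G62455 (1.38 ± 0.24, adjusted p = 0.108) and AT2G26695 (1.86 ± 0.47, adjusted p = 0.435) were not called under UVA350. The interaction test recovered 7.46% of genes changed 1.5-fold under blue0 alone, and 61.2% of those changed 2-fold there.

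The mutated gene was still transcribed. UVR8 (AT5G63860) had 133, 141 and 155 CPM (lowest, median and highest of 6 libraries) in uvr8-2 and 124, 131 and 135 CPM in Ler, a log2 difference of 0.11 ± 0.05 (± standard error; adjusted p = 0.266). The ranges overlapped, and since an allele need not alter the level of its transcript, this does not check the labels. COP1, the ligase that UVR8 binds, stood at 33.7, 46.2 and 55.0 CPM in uvr8-2 and 33.0, 40.2 and 48.7 CPM in Ler (0.10 ± 0.07, adjusted p = 0.501). The transcription factor genes HY5 (-0.04 ± 0.14) and HYH (-0.14 ± 0.16) and the UVR8 repressor genes RUP1 (0.10 ± 0.24) and RUP2 (-0.13 ± 0.13) were not called either, with adjusted p between 0.634 and 0.925. Of 23 tested genes of UVR8 signalling, 1 was called higher (ELIP1) and 0 lower, at a median log2 difference of 0.06; the share called, 4.35%, was near the 3.68% of all genes tested. In the libraries with short UV, 2 of the 23 were called higher and 5 lower, at a median of -0.26. Of all genes tested there, 1.53% were called higher and 2.17% lower. The genotype effect with short UV minus that without it was called higher for 1 gene of the list and lower for 3. Of all genes tested, 0.269% and 0.766% were so called. The photoreceptor genes CRY1 (0.01 ± 0.07) and CRY2 (0.04 ± 0.09) lay close to 0, and 0 of 14 photoreceptor and blue-light genes were called.

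The flavonoid pathway, which is the textbook output of UVR8, had 4 of 24 enzyme genes called without short UV (16.7%, against 3.68% of all genes tested) and 20, all lower in uvr8-2, with it. Chalcone synthase (CHS), the entry enzyme of flavonoid synthesis, had 96.9, 766 and 934 CPM in uvr8-2 and 93.9, 663 and 970.4 CPM in Ler without short UV, where the ranges overlapped (0.16 ± 0.10, adjusted p = 0.422). With short UV its log2 difference was -1.42 ± 0.22, and the difference between these genotype effects was itself called (-1.57 ± 0.25, adjusted p = 0.00425). Flavonol synthase FLS1 differed by 0.33 ± 0.16 without and -1.70 ± 0.17 with short UV (difference -2.05 ± 0.24, adjusted p = 0.000412), and flavanone 3-hydroxylase F3H by 0.13 ± 0.10 and -1.65 ± 0.25 (difference -1.76 ± 0.25, adjusted p = 0.00225). Of the 24 flavonoid and phenylpropanoid enzyme genes, 1 was called higher and 3 lower without short UV, at a median of -0.02, against 0 higher and 20 lower with short UV, at a median of -1.40, where 2.17% of all genes tested were called lower (1.53% higher). For 18 of the 24 the difference between the genotype effects was called, each time more negative with short UV, where 1.03% of 19725 genes tested were called. Among the regulators of the pathway, MYB12 (0.33 ± 0.35) and MYB111 (0.26 ± 0.23), which switch on flavonol genes, were not called without short UV, and 1 of the 12 regulators was called higher without it, at a median of 0.08. With short UV 0 of the 12 were called higher and 8 lower, at a median of -0.75, although the difference between the genotype effects was called for 1 of them.

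**Figure D2:**
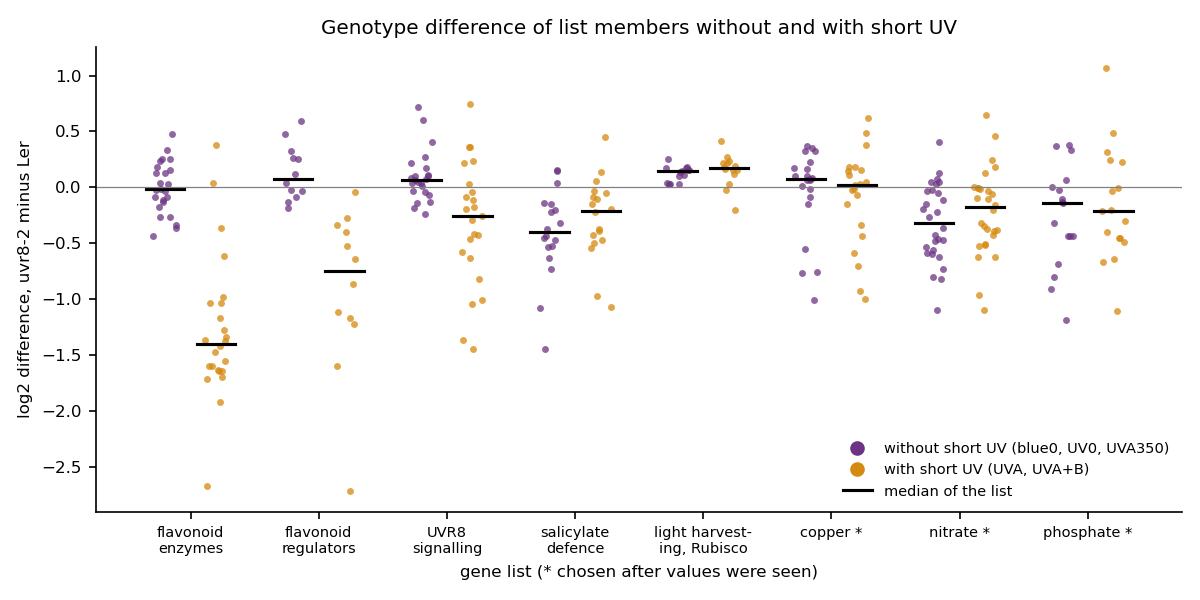
Log2 differences, uvr8-2 minus Ler, of the tested members of 8 gene lists, without short UV on the left and with short UV on the right of each pair; black bars are list medians and an asterisk marks lists chosen after values were seen. The flavonoid enzymes centre on -0.02 without short UV and on -1.40 with it, while the medians of the light-harvesting and Rubisco genes are 0.14 and 0.17.

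Some genes near the end of the flavonoid pathway were lower in uvr8-2 even without short UV. LDOX, which makes anthocyanidins, had 38.5, 78.3 and 92.1 CPM in uvr8-2 and 48.7, 97.6 and 126 CPM in Ler (-0.34 ± 0.07, adjusted p = 0.0128). UGT79B1, which adds a sugar to anthocyanins, had 8.03, 23.2 and 27.3 CPM in uvr8-2 and 10.4, 31.7 and 38.9 CPM in Ler (-0.44 ± 0.08, adjusted p = 0.0074), and GSTF12, needed to carry anthocyanins to the vacuole, differed by -0.37 ± 0.09 (adjusted p = 0.032). The ranges overlapped, and the lowest libraries of both genotypes were those under blue0. LDOX and UGT79B1 were called in 12 of 12 fits that each left out 1 library, and GSTF12 in 5 (log2 -0.43 to -0.29 over the 12). None of these genes was called with all 30 libraries in the fit, without the UV0 libraries, without the UVA350 libraries or with no filter term. MYB75, the activator of anthocyanin genes also known as PAP1, went the other way, with 27.3, 50.9 and 88.2 CPM in uvr8-2 and 21.7, 37.2 and 57.7 CPM in Ler (0.47 ± 0.11, adjusted p = 0.0348), though it was called in 4 of those 12 fits (log2 0.39 to 0.55). PAL3, a phenylalanine ammonia-lyase gene at the head of phenylpropanoid synthesis, was higher in all 6 uvr8-2 libraries (14.9, 18.6 and 20.3 CPM) than in any of Ler (11.2, 13.3 and 14.0 CPM; 0.48 ± 0.08, adjusted p = 0.00573).

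ELIP1, an early light-induced protein that protects chloroplasts from excess light, was higher in uvr8-2 without short UV. It had 3.67 and 2.83 CPM in the 2 uvr8-2 libraries and 2.30 and 1.73 CPM in the 2 Ler libraries under blue0. Under UV0 the values were 902 and 656 CPM in uvr8-2 and 428 and 602 CPM in Ler, and under UVA350 999.6 and 843 CPM in uvr8-2 and 500.3 and 513 CPM in Ler. Within each of the 3 filters both uvr8-2 libraries were above both Ler libraries, and the log2 difference was 0.72 ± 0.12 (adjusted p = 0.00468), called in 12 of 12 fits without 1 library. ELIP1 was not called with all 30 libraries in the fit, without the UVA350 libraries or with no filter term. In the libraries with short UV the difference was -1.04 ± 0.26 (adjusted p = 0.0597, not called), and the change between those settings was called (-1.75 ± 0.31, adjusted p = 0.0119). ELIP2 differed by 0.61 ± 0.21 without short UV and was not called (adjusted p = 0.151).

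**Figure D3:**
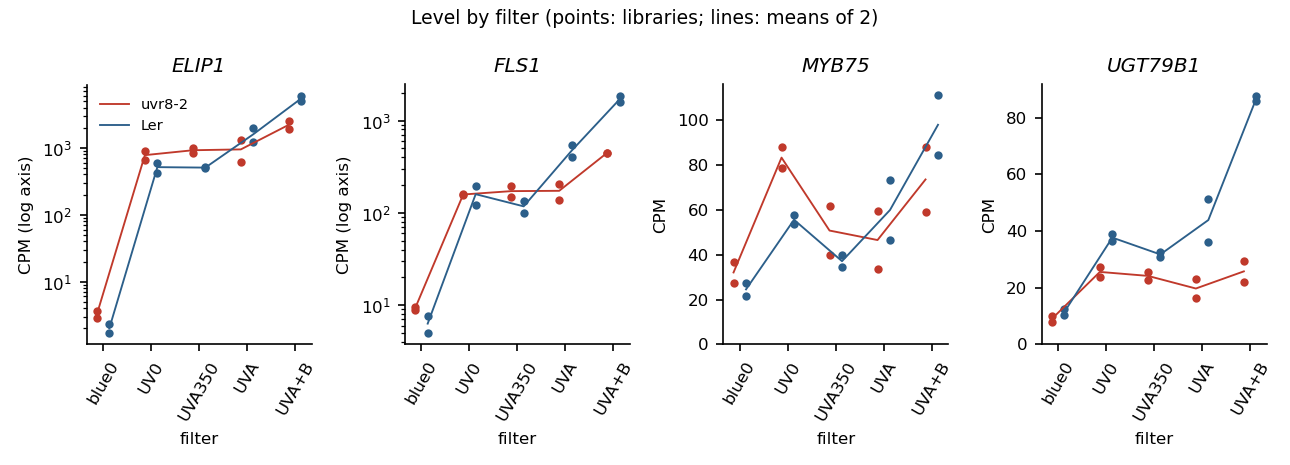
Levels in CPM (vertical axes, logarithmic for ELIP1 and FLS1) of 4 genes under the 5 filters, with uvr8-2 in red and Ler in blue; points are libraries and lines join means of 2. ELIP1 in uvr8-2 lies above Ler under blue0, UV0 and UVA350 and below it under UVA+B, FLS1 is below Ler under UVA and UVA+B, and UGT79B1 is below Ler under each filter from UV0 to UVA+B.

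DNA repair genes were not called without short UV either. The photolyase genes PHR1 (AT1G12370), which mends cyclobutane dimers, and UVR3, which mends the other main UV lesion, differed by 0.18 ± 0.11 and -0.04 ± 0.27 without short UV (adjusted p = 0.41 and 0.963). The difference between the genotype effects was called for both, at -0.87 ± 0.18 (adjusted p = 0.0243) and -2.01 ± 0.42 (adjusted p = 0.0299), and for RAD52-2, a homolog of a recombination gene, at -0.97 ± 0.11 (adjusted p = 0.000395). Of 13 tested genes of photolyases and the DNA damage response, 0 were called without short UV, at a median of 0.02.

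Copper/zinc superoxide dismutases, which detoxify superoxide, and the chaperone that loads them with copper were lower in uvr8-2 under all 3 filters. CSD2, the chloroplast copper/zinc superoxide dismutase, had 138, 172 and 229 CPM in uvr8-2 and 317, 361 and 396 CPM in Ler, so that all 6 uvr8-2 libraries lay below all 6 of Ler (-1.01 ± 0.10, adjusted p = 0.000157). The difference was close to 2-fold under each filter, at -1.09 ± 0.18 under blue0, -1.04 ± 0.18 under UV0 and -0.89 ± 0.18 under UVA350. CSD1, the cytosolic enzyme, had 103, 133 and 146 CPM in uvr8-2 and 166, 179 and 216 CPM in Ler (-0.56 ± 0.08, adjusted p = 0.00225). CCS, the chaperone that delivers copper to both, had 16.2, 23.7 and 25.6 CPM in uvr8-2 and 34.3, 37.1 and 43.7 CPM in Ler (-0.76 ± 0.10, adjusted p = 0.00138). For CSD1 and for CCS the genotypes did not overlap.

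In Arabidopsis, the messages of CSD1, CSD2 and CCS are known targets of the microRNA miR398, and that of ARPN, the blue copper protein plantacyanin, is a known target of miR408. ARPN had 3.04, 3.59 and 4.70 CPM in uvr8-2 and 4.77, 6.04 and 8.36 CPM in Ler, again without overlap (-0.77 ± 0.12, adjusted p = 0.00412). The primary transcripts of MIR398c (0.31 ± 0.20, adjusted p = 0.419) and MIR408 (0.00 ± 0.42, adjusted p = 0.997), named after values were seen, were not called, and mature microRNAs were not analysed here. CSD3, the peroxisomal isoform (0.07 ± 0.07), the iron superoxide dismutase FSD1 (0.18 ± 0.08) and the copper regulator SPL7 (0.10 ± 0.08) were not called. The laccase genes LAC3 (0.35, adjusted p = 0.601), LAC4 (0.23, adjusted p = 0.263) and LAC13 (0.16, adjusted p = 0.636) lay above 0 and were not called either. CCH, another copper chaperone, was higher in uvr8-2, with 105, 123 and 131 CPM against 80.0, 91.7 and 105 CPM in Ler (0.37 ± 0.07, adjusted p = 0.0095). Of 21 tested genes on a list of copper handling and copper proteins that was chosen after these values were seen, 1 was called higher and 4 lower (23.8% called, against 3.68% of all genes tested), at a median of 0.07. These counts were the same in each of the 12 fits without 1 library and without the blue0 libraries. They fell to 0 higher and 1 lower without the UVA350 libraries, 0 and 3 without the UV0 libraries, and 0 and 2 with no filter term. In the libraries with short UV CSD2 differed by -1.004 ± 0.10 (adjusted p = 0.00287), CSD1 by -0.70 ± 0.12 (adjusted p = 0.0144) and CCS by -0.93 ± 0.12 (adjusted p = 0.00546), all called, whereas ARPN (-0.59 ± 0.22, adjusted p = 0.127) was not.

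**Figure D4:**
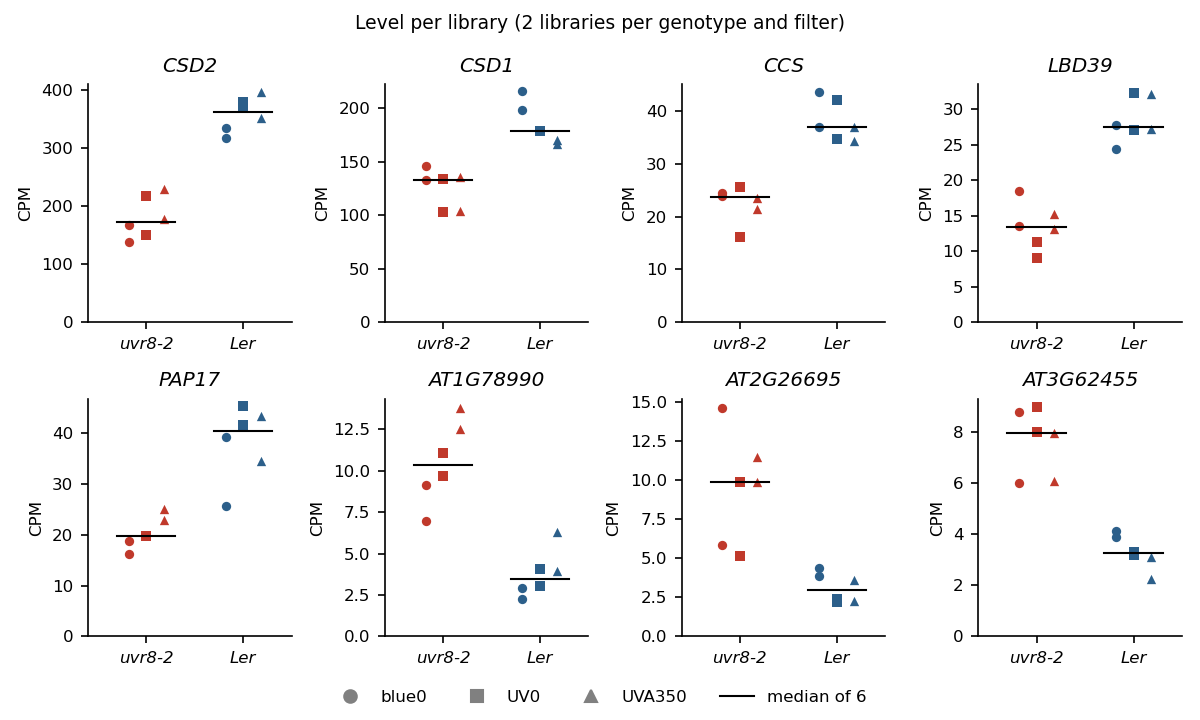
Level in CPM in each of the 6 uvr8-2 libraries (left, red) and 6 Ler libraries (right, blue) for 8 genes, with the marker showing the filter and the bar the median of 6. In all 8 panels the genotypes do not overlap, with CSD2, CSD1, CCS, LBD39 and PAP17 lower and AT1G78990, AT2G26695 and AT3G62455 higher in uvr8-2. The ranking by size, which picked the higher genes shown, admits only genes without overlap.

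Several genes of the nitrate response were lower in uvr8-2 as well. LBD37, LBD38 and LBD39 encode nitrate-induced transcription factors that repress nitrogen-uptake and anthocyanin genes. LBD39 had 8.97, 13.4 and 18.4 CPM in uvr8-2 and 24.3, 27.5 and 32.3 CPM in Ler, with no overlap (-1.10 ± 0.14, adjusted p = 0.00207). LBD37 had 14.1, 25.9 and 37.0 CPM in uvr8-2 and 31.2, 38.4 and 49.2 CPM in Ler (-0.73 ± 0.12, adjusted p = 0.00732), and LBD38 7.93, 10.4 and 13.9 CPM in uvr8-2 and 12.1, 14.7 and 17.5 CPM in Ler (-0.53 ± 0.11, adjusted p = 0.0162); their ranges overlapped. CLC-A, which stores nitrate in the vacuole, differed by -0.60 ± 0.07 (adjusted p = 0.001), with both uvr8-2 libraries below both Ler libraries under each of the 3 filters.

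Further called genes of nitrate use were UPM1 (-0.47 ± 0.08), which makes the siroheme cofactor of nitrite reductase, the plastid glucose-6-phosphate dehydrogenase G6PD3 (-0.48 ± 0.09), the kinase CIPK3 (-0.46 ± 0.07), the asparagine synthetase ASN2 (-0.63 ± 0.11), the regulator HHO2 (-0.37 ± 0.08) and NRT3.1 (-0.82 ± 0.19), a partner of high-affinity nitrate transporters. NRT3.1 kept its call in 3 of 12 fits without 1 library (log2 -1.02 to -0.68) and HHO2 in 10 (-0.42 to -0.30), the others in 12. The nitrate transporter and sensor NRT1.1 was higher, with 71.7, 77.3 and 86.3 CPM in uvr8-2 and 52.0, 57.1 and 66.2 CPM in Ler (0.41 ± 0.07, adjusted p = 0.00763). The nitrate and nitrite reductase genes were not called: NIA1 differed by -0.57 ± 0.16 (adjusted p = 0.0734), NIA2 by -0.43 ± 0.23 and NIR1 by -0.27 ± 0.09. Of 28 tested genes on this list, again chosen after values were seen, 1 was called higher and 10 lower (39.3% called, against 3.68% of all genes tested), at a median of -0.32. Without the 2 uvr8-2 libraries that stand apart, 1 was called higher and 6 lower. The counts were 0 higher and 0 lower without the UVA350 libraries and 0 and 2 without the UV0 libraries. They were 0 and 10 without the blue0 libraries, and 0 and 1 with no filter term. In the libraries with short UV the median was -0.18 and 0 genes were called higher and 1 lower, NRT3.1 (-1.10 ± 0.21, adjusted p = 0.0265).

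Phosphate genes gave a smaller set. PAP17, a purple acid phosphatase induced when phosphate is scarce, had 16.2, 19.8 and 25.1 CPM in uvr8-2 and 25.6, 40.4 and 45.3 CPM in Ler (-0.91 ± 0.11, adjusted p = 0.001). SRG3, a glycerophosphodiester phosphodiesterase gene, had 1.95, 2.75 and 3.73 CPM in uvr8-2 and 3.80, 6.39 and 9.79 CPM in Ler (-1.18 ± 0.22, adjusted p = 0.0134), and the transporter gene PHT1;4 2.88, 3.36 and 3.83 CPM in uvr8-2 and 4.28, 5.41 and 6.89 CPM in Ler (-0.69 ± 0.13, adjusted p = 0.00906). For each of the 3 genes the genotypes did not overlap. PHO1, which loads phosphate into the xylem, was higher (0.37 ± 0.09, adjusted p = 0.038), a call kept in 2 of 12 fits without 1 library (log2 0.31 to 0.43). Of the 17 tested genes of this list, chosen after values were seen, 1 was called higher and 3 lower. That is 23.5% called, against 3.68% of all genes tested, at a median of -0.14. The phosphate sensor gene SPX1 differed by -0.80 ± 0.20 without being called (adjusted p = 0.0566). Without the 2 libraries that stand apart, 0 genes of the list were called higher and 1 lower. The counts were also 0 and 1 without the UV0 libraries, without the UVA350 libraries or with no filter term. They were 0 and 3 without the blue0 libraries. With short UV, PAP17 (-0.46 ± 0.10, adjusted p = 0.0395) and SRG3 (-1.11 ± 0.20, adjusted p = 0.0191) were called lower again. PPCK1, the kinase that activates phosphoenolpyruvate carboxylase, was noticed after values were seen: it had 15.1, 26.7 and 56.6 CPM in uvr8-2 and 47.6, 62.8 and 85.5 CPM in Ler (-1.17 ± 0.19, adjusted p = 0.0124), and -1.37 ± 0.14 with short UV (adjusted p = 0.00287).

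Several defence genes were among those that fell most. PR1, the standard marker of salicylate defence, had 16.6, 22.4 and 34.5 CPM in uvr8-2 and 36.6, 51.0 and 66.4 CPM in Ler, without overlap (-1.08 ± 0.19, adjusted p = 0.0169). WRKY38, a transcription factor of the same response, had 0.898, 2.04 and 4.24 CPM in uvr8-2 and 4.11, 4.65 and 10.9 CPM in Ler (-1.45 ± 0.27, adjusted p = 0.0163), with ranges that overlapped slightly. These were the 2 called members of 18 tested salicylate genes, of which 15 lay below 0, at a median of -0.40; 11.1% were called, against 3.68% of all genes tested. Without the 2 libraries that stand apart the median was -0.41, and 0 members were called. With short UV the median was -0.21, 0 members were called, and PR1 differed by -0.20 ± 0.52 (adjusted p = 0.847). Of 21 jasmonate genes, 2 were called lower (9.52%, against 2.42% of all genes tested): JAZ10, a repressor of the jasmonate response (-0.45 ± 0.11, called in 3 of 12 fits without 1 library, log2 -0.52 to -0.35), and the defensin PDF1.2, present at 0 to 1.04 CPM in uvr8-2 and 0.298 to 2.05 CPM in Ler (adjusted p = 0.0251, called in 7 of 12).

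Further lowered genes picked by the naming rule had mixed annotations. EARLI1, a lipid-transfer-like protein of the leaf surface, had 14.2, 17.4 and 31.7 CPM in uvr8-2 and 34.9, 40.1 and 49.5 CPM in Ler (-1.09 ± 0.17, adjusted p = 0.0104). The legume-lectin gene AT5G03350 had 14.5, 21.8 and 36.8 CPM in uvr8-2 and 37.3, 43.0 and 66.0 CPM in Ler (-1.04 ± 0.16, adjusted p = 0.00906). The jacalin-related lectin gene JAL23 (-0.73 ± 0.14), the indole glucosinolate enzyme CYP81F4 (-0.75 ± 0.12), the acyltransferase gene GLC (-0.76 ± 0.11), the protease gene AT5G19100 (-0.76 ± 0.16) and the protein kinase gene AT3G22750 (-0.70 ± 0.09) had every uvr8-2 library below every Ler library. The naming rule's ranking by size admits only genes without overlap. AT5G19100 kept its call in 5 of 12 fits without 1 library (log2 -0.86 to -0.64), and the other genes of this paragraph in 12.

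Among the genes that were higher, AT1G78990, which encodes an acyltransferase of the HXXXD family, had the smallest p of all: 6.97, 10.4 and 13.8 CPM in uvr8-2 and 2.27, 3.48 and 6.32 CPM in Ler (1.49 ± 0.13, adjusted p = 9.58e-05). The largest rise under the naming rule was in AT2G26695, a zinc finger gene, with 5.13, 9.87 and 14.6 CPM in uvr8-2 and 2.23, 2.99 and 4.39 CPM in Ler (1.59 ± 0.25, adjusted p = 0.00906). AT3G62455, whose product is uncharacterized, had 6.00, 7.95 and 8.95 CPM in uvr8-2 and 2.26, 3.24 and 4.11 CPM in Ler (1.20 ± 0.14, adjusted p = 0.000699). In all 3, every uvr8-2 library was above every Ler library, which the ranking by size requires. All 3 were called with short UV too, at 1.60 ± 0.19, 1.86 ± 0.36 and 1.29 ± 0.15.

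The rest of that ranking, which admits only genes without overlap, held genes of mixed annotation with smaller rises. They were the TRAF-like gene AT4G01390 (0.77 ± 0.11), the zinc finger gene AT1G29560 (0.71 ± 0.09), the dioxygenase gene 2A6 (0.66 ± 0.10), the resistance-gene relative AT1G72840 (0.64 ± 0.12) and the methyltransferase gene AT1G33170 (0.62 ± 0.07). They continued with APS4, an ATP sulfurylase of sulfate assimilation (0.58 ± 0.09), MIPS3, which makes inositol phosphate (0.58 ± 0.07), the transporter-like gene AT2G44280 (0.54 ± 0.09), the leaf vein gene DOT1 (0.53 ± 0.09), the nuclear factor Y subunit gene NF-YA2 (0.52 ± 0.09), AT2G35760 (0.52 ± 0.12) and the ceramidase gene AT5G58980 (0.52 ± 0.09). AT2G35760 kept its call in 5 of 12 fits without 1 library (log2 0.41 to 0.58). For DOT1 the genotype effect differed with short UV (-0.73 ± 0.17, adjusted p = 0.0431). The P450 gene CYP71A25, picked after values were seen, had 6.93, 12.8 and 16.6 CPM in uvr8-2 and 2.58, 7.00 and 7.93 CPM in Ler (1.11 ± 0.15, adjusted p = 0.00206).

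The remaining lists held 0 to 2 called genes each, where 3.68% of all genes tested were called. None of 18 clock and photoperiod genes, 16 shade and PIF genes, 7 heat shock genes or 11 flowering genes tested was called, with medians of 0.12, -0.04, 0.22 and -0.01. The 14 light-harvesting and Rubisco genes all lay above 0 by 0.03 to 0.25 and 0 were called. Of 11 auxin genes, the repressor gene IAA14 was called lower (-0.62 ± 0.16, in 2 of 12 fits without 1 library, log2 -0.72 to -0.54). Aliphatic glucosinolate synthesis had 2 of 16 genes called higher (12.5%, against 1.27% of all genes tested): AOP3, a side-chain enzyme at 729, 816 and 972 CPM in uvr8-2 and 510.4, 617 and 750.0 CPM in Ler (0.40 ± 0.07, adjusted p = 0.00906), and SOT18, a sulfotransferase of the core pathway (0.31 ± 0.07, adjusted p = 0.0193, called in 10 of 12 fits, log2 0.28 to 0.35). Of 5 guard cell and phloem markers the potassium channel gene KAT1 was called higher (0.32 ± 0.08, in 4 of 12 fits, log2 0.27 to 0.37), and the 5 markers summed to 233 to 269 CPM in uvr8-2 and 199 to 262 CPM in Ler.

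Genes annotated as ribosomal leaned lower in uvr8-2 by a small amount. Of 374 tested genes whose RefSeq product name contains "ribosomal", chosen after values were seen, 0 were called higher and 50 lower (13.4%, against 2.42% of all genes tested), at a median of -0.21, with 13.6% of them above 0 against 50.9% of all genes tested. The group's level was uneven across libraries: the median log2 deviation of these genes from their own mean over the 12 libraries was -0.37 in uvr8-2 UV0 replicate 1, the lowest of all, and ranged up to 0.10 in uvr8-2 and between -0.10 and 0.25 in Ler. Without uvr8-2 UV0 replicate 1 the group's median was -0.15 with 40 called lower, and without both libraries that stand apart it was -0.12 with 14 called lower. The number called lower was 0 without the UV0 libraries, without the UVA350 libraries or with no filter term (medians -0.12, -0.25 and -0.21), 2 without the blue0 libraries, and 7 without Ler UV0 replicate 1, Ler UV0 replicate 2 or Ler blue0 replicate 2. With short UV the median was -0.28, and 1 gene was called lower. Small nucleolar RNAs, which guide ribosomal RNA modification, also appeared among the named genes. AT2G05765 had 6.22, 7.83 and 9.13 CPM in uvr8-2 and 10.3, 14.1 and 18.4 CPM in Ler (-0.82 ± 0.13). AT3G21805 had 2.56, 3.12 and 3.95 CPM in uvr8-2 and 4.28, 5.44 and 6.42 CPM in Ler (-0.78 ± 0.11). The naming rule's ranking by size admits only genes without overlap. How many small nucleolar RNAs were tested or called was not counted, and the libraries were made with an mRNA kit. Gene length moved with the genotype difference over all genes: of 5 groups of genes by length, the shortest had a median of -0.03, with 38 called higher and 123 lower, and the longest a median of 0.03, with 51 higher and 69 lower. The part of gene length in these results was not tested.

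The called genes were spread over the genome. By locus code, the share called was 3.58% on chromosome 1, 4.21% on 2, 3.83% on 3, 3.05% on 4 and 3.79% on 5. Of the 50 tested genes nearest to UVR8 in locus order, 0 were called. Among 1928 windows of 50 neighbouring tested genes the median number called was 2 and the highest 9, in 2 overlapping windows between AT4G15470 and AT4G16141 on chromosome 4, with all 9 genes lower. They hold a tandem array of thioredoxin-superfamily genes, AT4G15660, AT4G15670, AT4G15680, AT4G15690 and AT4G15700, of which the last 4 were named after values were seen. AT4G15660 had 0.365, 1.15 and 2.12 CPM in uvr8-2 and 2.84, 3.14 and 4.71 CPM in Ler (-1.53 ± 0.27, adjusted p = 0.00844), and the other four differed by -1.23 to -1.51, with AT4G15680 keeping its call in 4 of 12 fits without 1 library (log2 -1.54 to -1.07). Such neighbouring copies can share reads, so that the split of counts among them is uncertain.

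A few genes were nearly absent from 1 genotype or stayed under 1 CPM in it. AT2G11570, uncharacterized, had 0 to 0.0634 CPM in uvr8-2 and 0.548 to 1.30 CPM in Ler (adjusted p = 0.000503). AT1G19410 had 0.226, 0.495 and 1.03 CPM in uvr8-2 and 0 to 0.171 CPM in Ler, and AT5G33432 0.571, 0.850 and 1.09 CPM in uvr8-2 and 0 to 0.274 CPM in Ler. The auxin efflux carrier-like gene AT1G76530 had 0.163, 3.79 and 5.04 CPM in uvr8-2 and 0, 0.937 and 0.991 CPM in Ler, with ranges that overlapped (2.16 ± 0.32), and its neighbour AT1G76520 was higher as well (0.52 ± 0.08). Except for AT2G11570, these were named after values were seen. Also on chromosome 1, AT1G76720 encodes a translation initiation factor 2-like protein. It had 10.8, 29.5 and 31.8 CPM in uvr8-2 and 7.76, 13.0 and 16.2 CPM in Ler (0.90 ± 0.10, adjusted p = 0.00078). Its genotype effect differed with short UV (-0.69 ± 0.15, adjusted p = 0.0289). In the window from AT1G75990 to AT1G76550, which does not reach AT1G76720, 6 of 50 genes were called, all higher. The median over the 1928 windows was 2, and 78 windows held 5 or more called genes. Whether uvr8-2 and Ler differ in sequence at these loci is not given in the sources used here.

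In the 8 libraries with short UV, the genes called without it mostly kept their direction. Of the 715 tested in both, 666 (93.1%) had the same sign there, against 68.6% of the 19094 genes tested in both sets. With short UV 708 of 19167 genes were called (3.69%). Of these, 128 were called in the same direction in both sets, which is 17.8% of the genes called without and 18.1% of those called with short UV, and 3 of the 715 were called in opposite directions. The 244 genes called higher without short UV and tested in both had medians of 0.43 without and 0.38 with short UV, and the 471 called lower had medians of -0.39 and -0.40. For 19 of the 715 the genotype effect itself differed between the settings, where 204 of 19725 genes did in all (1.03%), 53 with a higher and 151 with a lower effect with short UV. The number called with short UV lay between 143 and 755 as each of its 8 libraries was left out, and the number of differing effects between 107 and 253.

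The genes with the smallest p for that difference had little genotype effect without short UV. AT4G30470, an oxidoreductase-like gene, differed by -0.06 ± 0.10 without and -1.82 ± 0.24 with short UV. UGT89C1, which adds rhamnose to flavonols, differed by 0.24 ± 0.07 without and -1.38 ± 0.19 with it, and AAE18, an acyl-activating enzyme, by 0.26 ± 0.08 and -1.26 ± 0.18. SDH2-1, a subunit of mitochondrial succinate dehydrogenase, differed by 0.02 ± 0.05 and -0.78 ± 0.14. ACS4, an ethylene synthesis enzyme, was the exception in direction, at -0.30 ± 0.10 without short UV and 1.51 ± 0.18 with it.

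The cry1cry2 mutant under the same 3 filters differed from the same 6 Ler libraries in 4556 of 19601 genes (23.2%). Because both mutants are set against the same Ler libraries, their values are only placed side by side. CSD2 differed from Ler by -1.01 ± 0.10 in uvr8-2 and -0.81 ± 0.11 in cry1cry2, and CCS by -0.76 ± 0.10 in uvr8-2 and -0.32 ± 0.11 in cry1cry2. LBD39 differed by -1.10 ± 0.14 in uvr8-2 and -0.43 ± 0.07 in cry1cry2. The signs were opposite for ELIP1, at 0.72 ± 0.12 in uvr8-2 and -2.49 ± 0.54 in cry1cry2, for PR1, at -1.08 ± 0.19 in uvr8-2 and 0.72 ± 0.21 in cry1cry2, and for CLC-A, at -0.60 ± 0.07 in uvr8-2 and 1.13 ± 0.12 in cry1cry2. Of the 3 risen genes described first above, AT1G78990 stood at 1.49 ± 0.13 in uvr8-2 and 1.11 ± 0.15 in cry1cry2, AT3G62455 at 1.20 ± 0.14 in uvr8-2 and 0.43 ± 0.12 in cry1cry2, and AT2G26695 at 1.59 ± 0.25 in uvr8-2 and -0.02 ± 0.18 in cry1cry2; the last was not called in cry1cry2 (adjusted p = 0.954).

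**Figure D5:**
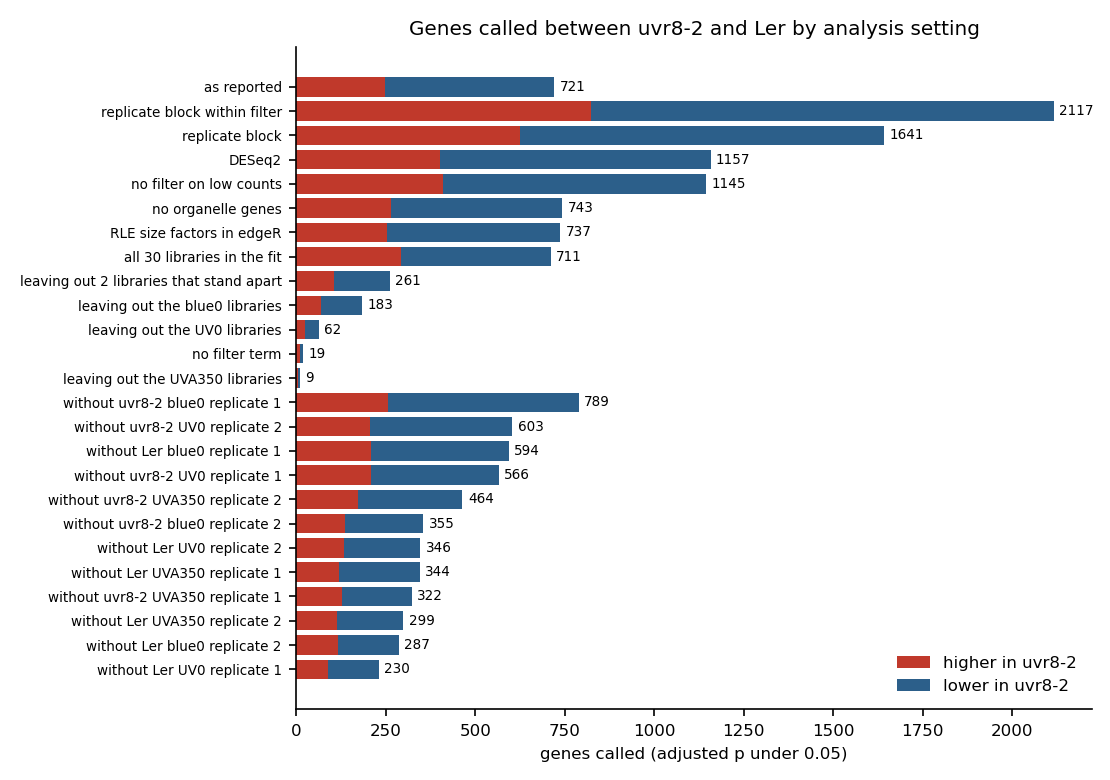
Number of genes called between uvr8-2 and Ler without short UV (horizontal axis) in the reported analysis and under each alternative, split into genes higher (red) and lower (blue) in uvr8-2. The count is 721 as reported, 9 without the 4 UVA350 libraries and 2117 with a replicate block within filter.

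The count of called genes moved with the libraries in the fit, while the median size of the differences moved little. With the 4 libraries of a filter left out, 183 genes were called without blue0, 62 without UV0 and 9 without UVA350. In those 3 fits the median log2 difference of the genes reported as higher stayed between 0.42 and 0.45, and of those reported as lower between -0.42 and -0.34. None of the 721 genes with a value changed sign in any of the 24 alternatives run for this comparison. These alternatives reuse all or most of the libraries that picked the genes, so kept signs and sizes are no independent check.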

How the data were processed

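RNA of whole rosettes was sequenced from libraries made with a stranded mRNA kit, per the labels' protocols. The authors deposited estimated counts per locus for all 30 libraries in 1 table of 34212 loci. FastQC, Trimmomatic 0.33 and kallisto were used, per the submitters' processing notes; what each tool did, the kallisto version, the genome build and any use of strand in counting were not given in the sources used here. Estimated counts were rounded to whole numbers. Symbols and product names came from RefSeq (99.4% of tested loci matched), and locus order from the locus codes.

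Genes were tested in R 4.3.3 with edgeR 4.0.16 (filterByExpr by group, TMM factors, robust quasi-likelihood F test, Benjamini-Hochberg over all genes tested), with the filter as an additive term; the biological coefficient of variation was 0.116. The effects within a filter came from 1 coefficient per group. Levels in CPM share 1 TMM scale over the 30 libraries. Standard errors were taken from the F statistic. DESeq2 1.42.0 was an alternative, beside other scalings, filters, error terms and sets of libraries. On simulated counts for uvr8-2 minus Ler without short UV (19448 genes), edgeR recovered 97% of genes changed 1.5-fold and 100% of those changed 2-fold, with 7 unchanged genes called. Every simulated gene had the same coefficient of variation, 0.12, and only genes with a mean of at least 5 CPM were changed. No simulated library was made to stand apart, so these shares need not hold for the data.

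Genes were named by a rule: the 15 called genes with the largest difference in each direction, with at least 5 CPM and no overlap between genotypes, the 10 with the smallest p, called members of the gene lists, a set of UV and light genes, and the 5 with the smallest p in each other comparison. The groups and lists were chosen with earlier results of these data known. Genes and lists picked after values were seen are marked so in the text. All plants were harvested on 1 day, so p-values rest on the spread among pooled libraries of that day.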

Additional observations from a re-analysis of the deposited data

Results flagged for a closer look

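For 17 of the named genes, the genotype effect (uvr8-2 minus Ler) differed between the filters with and without short UV (edgeR, contrast of the effects, adjusted p under 0.05). The values are log2 differences, effect with short UV minus effect without it.

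Flavonoid enzymes had effects that were lower with short UV, by -2.05 ± 0.24 for FLS1, -1.76 ± 0.25 for F3H, -1.61 ± 0.16 for UGT89C1, -1.57 ± 0.25 for CHS, -1.26 ± 0.16 for GSTF12, -1.02 ± 0.17 for UGT79B1 and -0.997 ± 0.19 for UGT75C1, an anthocyanin glucosyltransferase named after values were seen. The DNA repair genes differed by -2.01 ± 0.42 for UVR3, -0.97 ± 0.11 for RAD52-2 and -0.87 ± 0.18 for PHR1 (AT1G12370). ELIP1 differed by -1.75 ± 0.31, and its effect had opposite signs without (0.72 ± 0.12) and with short UV (-1.04 ± 0.26), the second of which was not called. DOT1 (-0.73 ± 0.17) and AT1G76720 (-0.69 ± 0.15) were higher in uvr8-2 without short UV and were not called with it. AT4G30470 (-1.73 ± 0.16), AAE18 (-1.49 ± 0.17) and SDH2-1 (-0.79 ± 0.09) were not called without short UV. ACS4 was the gene of the 17 whose effect was higher with short UV (1.81 ± 0.20).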

How the results depend on the processing

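For uvr8-2 minus Ler without short UV, 737 genes were called with RLE size factors, 711 with all 30 libraries in the fit and 743 without organelle genes, close to the reported 721. DESeq2 called 1157, no filter on low counts 1145, and a fit without the filter term 19. Leaving out the blue0, UV0 or UVA350 libraries gave 183, 62 and 9. Leaving out the 2 libraries that stand apart, an alternative chosen after seeing the data, gave 261. Leaving out each library gave 230 to 789.

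The interaction called 3 genes with DESeq2, 2 without the filter on low counts and 0 to 1 without each library. Under UVA350 the counts were 37 with DESeq2, 2 with all 30 libraries, 117 without the filter on low counts and 0 to 3 without each library. Under UV0 they were 68, 27, 432 and 0 to 581, and under blue0 7, 0, 27 and 0 to 5, in the same order. With short UV DESeq2 called 1503 genes, and the count without each library was 143 to 755. For the difference between the genotype effects DESeq2 called 327, and the count without each library was 107 to 253.

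The replicate numbers were not treated as pairs: same-numbered libraries of different groups deviated together in 14 of 15 pairs of groups at a correlation over 0.1, with the lowest at 0.097, and the labels do not say that a number marks shared blocks. With a replicate block the comparison without short UV called 1641 genes, and 2117 with the block within filter. The block gave 29 under UVA350, 116 under UV0, 2 under blue0, 0 for the interaction, 2305 with short UV and 561 for the difference between the effects.

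For the 145 named genes under these alternatives, no called gene changed sign, though the alternatives reuse the libraries that picked them. Calls of named genes were lost in 334 of 3479 gene and setting pairs and gained in 47. Depth limits genes under about 1 CPM, whose levels rest on few counts.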
